A study of Mus with 12 samples.

Results

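The kidneys of Apobec1 KO mice and of WT mice were compared 3 days after cisplatin, across all named genes of a mouse expression array. The groups, named after their labels, were KO AKI (Apobec1 KO, cisplatin), WT AKI (wild type, cisplatin), KO control (Apobec1 KO, saline) and WT control (wild type, saline), with 3 arrays in each. The arrays were chosen by title, and the 6 AKI arrays of the 12 in the series carry the comparison, while the 6 control arrays give the same genotypes without the drug. All animals were male with a C57Bl/6j background, cisplatin was given at 15 mg/kg, and the age of 6 months stands in the labels. The paper states a purchase of WT mice for its model of chronic disease and gives no source for the WT mice of its acute model. Whether both genotypes came from the same colony is not stated, so an effect of the colony cannot be told apart from that of the genotype. The KO is homozygous and present in the whole animal, and whole kidney RNA was measured, so the arrays hold every cell type of the organ at once. Where nothing else is said, a value is a log2 signal, in which a step of 1 is a doubling, and each group has 3 arrays. The labels name the arrays as replicates of a group and do not say how the animals were housed or batched.

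APOBEC1 is a cytidine deaminase that edits RNA, known above all for the C-to-U change in apolipoprotein B mRNA that yields the short form of the protein. Cisplatin enters the cells of the proximal tubule through transporters and damages them. The proximal tubule reabsorbs sugars, amino acids and salts across a brush border, takes up and secretes organic anions, and holds much of the amino acid metabolism of the kidney. Injured tubule cells are known to lose part of this program and to turn on genes of repair, adhesion, iron binding and innate defence.

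Of 19505 genes tested with limma, 95 differed between KO AKI and WT AKI at a Benjamini-Hochberg adjusted p under 0.05, which is 0.487% of the genes. In KO AKI 48 of these were higher (0.246%) and 47 were lower (0.241%), and 93 of the 95 differed by more than 2-fold. By the looser thresholds of the study, an unadjusted p under 0.01 and a change of more than 2-fold, 604 genes differed (3.1%), 277 of them higher in KO AKI (1.42%) and 327 lower (1.68%), and the median difference over all genes was -0.01. The 3 KO AKI arrays lay outside the range of the 3 WT AKI arrays for each of the 95 genes and for 17.2% of all genes. A lower signal in whole kidney RNA can come from fewer cells of a type or from less RNA in each cell, and the arrays cannot tell these apart. The number of calls moved with single arrays. Leaving out KO AKI replicates 1, 2 and 3 in turn gave 1174, 121 and 40 calls, and leaving out WT AKI replicates 1, 2 and 3 in turn gave 44, 2 and 4. Leaving out KO control replicates 1, 2 and 3 gave 42, 52 and 70, and leaving out those of WT control gave 40, 54 and 37. With the spread taken from the 6 AKI arrays alone, 1 gene was called, Jchain.

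**Figure D1:**
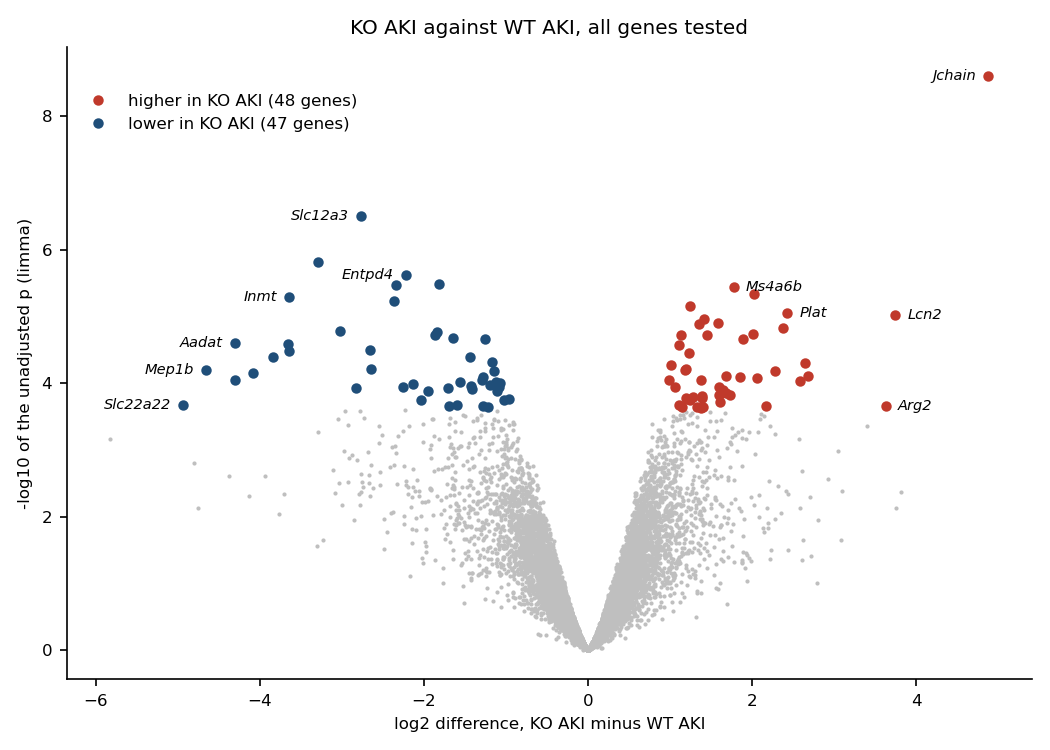
Each point is 1 of the 19505 genes, with the log2 difference of KO AKI from WT AKI on the x axis and the -log10 of the unadjusted p from limma on the y axis. The 48 genes higher in KO AKI and the 47 lower in KO AKI at an adjusted p under 0.05 are coloured, and Jchain stands highest.

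Background, the 95th percentile of 23 antigenomic probe sets of an array, lay between 6.15 and 6.52, and 44.3% to 47.0% of the genes of an array lay above it. Of the 95 genes, 64 lay above background on all 6 AKI arrays, 10 on no array of 1 of the groups and 9 on no AKI array. For these 9 no fold between the AKI groups is given. For the 10 the fold is given as a bound against the background, except for Cyp2j8 and Mapk8ip1, whose WT AKI mean did not exceed it. The other 12 lay below background on some AKI arrays, so their differences rest in part on signals not measured above it. These were Slc22a22, Mep1b, Clec2h, Sectm1b, Fam151a, Inmt, Vmn1r19, Ces1e, Defb29, Ms4a6b, Il1rn and Itgam. The tissue label was borne out by its markers, since the proximal tubule receptor Lrp2 and the thick ascending limb gene Umod lay above 13 on all 12 arrays, while the T cell gene Cd3e and the B cell gene Cd79a lay below background on all 12. The signal of the disrupted gene, Apobec1, did not separate the genotypes (-0.12, standard error 0.44, adjusted p = 0.94), and the sources used here do not say which exons its probes read relative to the disruption, so it checks no label. The KO AKI arrays were the most unequal group. The median SD of the 95 genes was 0.51 in KO AKI, against 0.27 in WT AKI, and KO AKI replicate 2 was farthest from the WT AKI mean for 31 of the 47 lower genes and 33 of the 48 higher genes. Of the 121 genes called without that array, 69 were among the 95. The fitted difference moved by more than 1.5-fold for 13 of the 95 genes without KO AKI replicate 2, for 12 without KO AKI replicate 1, and in WT AKI for Clec2h and Cyp2d12 without replicate 1 and for Clec2h without replicate 2. When KO AKI replicate 2 was left out the log2 differences of these 13 were smaller, at -3.17 for Aadat, -3.71 for Clec2h, -3.04 for Sectm1b, -2.96 for Fam151a, -2.14 for Vmn1r19, -1.99 for Ces1e, -1.57 for Fabp3 and 3.16 for Lcn2, with Slc22a22, Mep1b, Car4, Arg2 and A4galt given where they are described. Without KO AKI replicate 1 the 12 differences were larger, such as -6.35 for Slc22a22, -5.98 for Mep1b and 4.79 for Arg2.

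The gene called with the smallest p among those lower in KO AKI was Slc12a3, the thiazide-sensitive sodium chloride cotransporter of the distal convoluted tubule. Its signals were 8.88, 7.40 and 8.07 on the KO AKI arrays, against 10.57, 11.07 and 11.02 on the WT AKI arrays. The control arrays were far higher, with 16.84, 16.73 and 16.54 in KO control and 16.10, 16.38 and 16.15 in WT control. There the KO arrays lay slightly above the WT arrays, opposite to the AKI groups. Slc12a3 was thus 6.82-fold lower in KO AKI than in WT AKI (log2 difference -2.77, standard error 0.30, adjusted p = 0.00309), while the controls differed by 0.49 (adjusted p = 0.894). With cisplatin it fell by 8.59 in KO and by 5.33 in WT. It was called in all 12 fits that left out 1 array, which held otherwise only for Jchain. Slc12a3 was the only one called of 15 measured genes of the distal convoluted tubule, whose median difference was -0.34. Of the other genes of that list, 3 were higher and 11 lower in KO AKI without passing the test, and Tmem52b, a small membrane protein, had a difference of -1.98 (adjusted p = 0.278).

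Transporters of organic anions formed a set of calls in 1 direction. The Slc22 family carries organic anions and cations across the membranes of tubule cells, and 4 of its members fell in KO AKI. Slc22a7, a basolateral organic anion transporter known as OAT2, had signals of 5.41, 4.22 and 3.55 on the KO AKI arrays, all below background, and 7.67, 7.59 and 6.99 on the WT AKI arrays. It was at least 2.04-fold lower in KO AKI (adjusted p = 0.0162). It was already lower without cisplatin, at 7.15, 8.79 and 8.65 in KO control and 11.49, 10.90 and 11.49 in WT control (log2 difference -3.10, adjusted p = 0.0291). Slc22a13, a urate and nicotinate carrier, averaged 10.95 ± 0.99 in KO AKI and 12.90 ± 0.27 in WT AKI (SD, 3.85-fold, adjusted p = 0.0369). Slc22a22, which carries prostaglandins in the mouse, had 10.28, 4.17 and 7.91 in KO AKI, replicate 2 being below background, against 12.10, 12.77 and 12.30 in WT AKI. Its difference was -4.93 (standard error 0.99, adjusted p = 0.0477) and -3.29 without that array. Slc22a27, a related family member, was called lower (adjusted p = 0.0235) on signals of 3.81, 3.89 and 3.53 in KO AKI and 4.95, 5.16 and 5.46 in WT AKI, all below background.

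The 4 calls, with Slc22a27 below background on every array, stood among 39 measured transporters of organic anions, cations and drugs. Of all genes, 0.241% were called lower. Among the 39, 27 were lower and 12 higher in KO AKI, with a median of -0.85 and of -0.36 without KO AKI replicate 2. Of 361 measured genes whose symbol marks a solute carrier, 231 were lower and 130 higher in KO AKI, 5 were called lower and 1 was called higher, and the median was -0.17. The gene called higher was Slc19a2, a thiamine transporter (1.39, standard error 0.27, adjusted p = 0.0407). A list of 46 carriers that reabsorb sugar, amino acids, phosphate and sulfate held no called gene, although 36 were lower in KO AKI, and its median of -0.80 was -0.27 without KO AKI replicate 2. Among proximal tubule genes that did not pass, the glucose cotransporter Slc5a2 had 11.85, 7.44 and 10.58 in KO AKI, against 13.00, 13.52 and 13.21 in WT AKI (log2 difference -3.29, adjusted p = 0.0595). The amino acid transporter Slc7a13 had 14.79, 6.41 and 9.92 in KO AKI, against 16.16, 16.44 and 15.99 in WT AKI (-5.82, adjusted p = 0.065). Both genes had KO AKI arrays that lay below every WT AKI array but far apart from each other.

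Enzymes of the brush border, the microvillous surface of the proximal tubule, gave 4 calls among 35 measured members of their list, all lower in KO AKI. Of all genes, 0.241% were called lower. Mep1b, a subunit of the metalloprotease meprin, had signals of 10.75, 5.66 and 7.87 in KO AKI, against 12.64, 12.89 and 12.71 in WT AKI (log2 difference -4.65, standard error 0.82, adjusted p = 0.0301). Car4, the membrane-bound carbonic anhydrase of bicarbonate reabsorption, had 10.12, 6.72 and 8.58 in KO AKI, against 11.35, 12.73 and 12.28 in WT AKI (-3.64, standard error 0.60, adjusted p = 0.0206). Dpep1, the renal dipeptidase, had 8.38, 8.48 and 9.18 in KO AKI, against 10.03, 11.11 and 10.43 in WT AKI (-1.84, standard error 0.28, adjusted p = 0.0162). For Mep1b and Car4 the KO AKI arrays spread over several log2 units, the differences being -3.44 and -2.77 without KO AKI replicate 2, whereas for Dpep1 they stayed within 1 unit of each other and KO AKI replicate 2 was not the lowest. Xpnpep2, a membrane aminopeptidase, was called on signals below background on all 12 arrays (adjusted p = 0.0353). Over the list 31 of 35 genes were lower in KO AKI, the median was -1.0, and it was -0.46 without KO AKI replicate 2. Cndp2, a cytosolic dipeptidase outside the list, was 3.25-fold lower (adjusted p = 0.0477).

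Amino acid metabolism gave 3 more calls, while 0.241% of all genes were called lower. Of 56 measured genes 46 were lower in KO AKI, 25 had all 3 KO AKI arrays below all 3 WT AKI arrays (44.6% of the list, against 8.76% of all genes), and the 3 that passed the test were all lower. The list median was -1.08 and it was -0.47 without KO AKI replicate 2. Aadat, the aminotransferase of kynurenine and aminoadipate, had 12.10, 7.91 and 10.51 in KO AKI, against 14.41, 14.65 and 14.39 in WT AKI (log2 difference -4.31, standard error 0.69, adjusted p = 0.0179). Csad, which makes the precursor of taurine from cysteine, had 8.98, 7.29 and 7.97 in KO AKI, against 10.24, 10.80 and 10.29 in WT AKI, a 5.15-fold difference (-2.36, standard error 0.33, adjusted p = 0.0115). Inmt, an N-methyltransferase of indolamines, had 6.66, 5.11 and 4.51 in KO AKI, against 8.02, 10.00 and 9.20 in WT AKI (-3.64, standard error 0.50, adjusted p = 0.0113). Only 1 of these KO AKI arrays lay above background. In the controls Inmt stood at 14.84, 15.09 and 14.99 in KO and 14.04, 14.68 and 14.22 in WT, so both AKI groups lay far below both control groups. Among members short of the threshold, the sulfur amino acid enzyme Cbs had -2.18 (adjusted p = 0.0558) and the branched-chain keto acid dehydrogenase subunit Bckdha had -1.39 (adjusted p = 0.0642).

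Other enzymes called lower, which belong to no function list, act on lipids, ketone bodies, lysine and sulfate. Sugct, the transferase that activates glutarate in lysine breakdown, had 9.46, 8.62 and 9.10 in KO AKI, against 10.47, 11.19 and 10.97 in WT AKI (log2 difference -1.82, standard error 0.24, adjusted p = 0.0102). Bdh1, the ketone body enzyme that interconverts hydroxybutyrate and acetoacetate, had 9.42, 7.76 and 8.43 in KO AKI, against 10.72, 11.10 and 10.82 in WT AKI (-2.34, standard error 0.31, adjusted p = 0.0102). The control arrays of Bdh1 lay between 11.18 and 11.48, close to WT AKI, so that the KO AKI arrays were the group that stood apart. Acsm3, a mitochondrial medium-chain acyl-CoA synthetase, had 11.91, 10.16 and 10.65 in KO AKI, against 13.14, 14.17 and 13.35 in WT AKI (-2.65, standard error 0.46, adjusted p = 0.0301). In its family of 24 measured acyl-CoA synthetases and thioesterases 13 were higher and 11 lower, with a median of 0.02. The calls there were Acsm3, which fell, and Acsl5, which rose, while 0.241% of all genes were called lower and 0.246% higher. Papss2, which makes the sulfate donor of the cell, was 2.69-fold lower (adjusted p = 0.0353), and Etnppl, which breaks down phosphoethanolamine, was at least 1.62-fold lower (adjusted p = 0.0353). Fabp3, a fatty acid binding protein, was 4.77-fold lower (adjusted p = 0.0353) and Lpl, lipoprotein lipase, was 2.43-fold lower (adjusted p = 0.0477). Lpl differed in the same direction without cisplatin (-1.48, adjusted p = 0.075). Of 31 peroxisomal genes and targets of PPAR-alpha none was called, 18 were higher and 13 lower in KO AKI, and the median was 0.12.

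Enzymes that handle drugs, steroids and sugars completed the lower metabolic genes. Cyp2d12, a cytochrome P450 of the mouse kidney, had 10.14, 8.0 and 8.49 in KO AKI, against 11.35, 13.42 and 12.83 in WT AKI (log2 difference -3.66, standard error 0.59, adjusted p = 0.0183). It was the only call among 23 chosen P450, steroid and conjugation enzymes, of which 18 were lower in KO AKI, with a median of -1.43 that was -0.46 without KO AKI replicate 2. The whole families did not share this fall. Of 99 measured P450 genes 53 were higher and 46 lower, with a median of 0.03, and the calls were Cyp2d12 and Cyp2j8, while 0.241% of all genes were called lower. Of 32 sulfotransferases and UDP-glucuronosyltransferases 18 were higher and 14 lower, with a median of 0.08. Cyp2j8 had 5.09, 4.83 and 4.24 in KO AKI, all below background, against 6.36, 6.74 and 6.02 in WT AKI, which lay near it (adjusted p = 0.0164). Ces1e, a carboxylesterase, had 7.58, 5.41 and 7.21 in KO AKI, against 8.91, 10.00 and 9.26 in WT AKI (-2.65, standard error 0.44, adjusted p = 0.0206). Both P450 genes and Ces1e belong to clusters of similar mouse genes, and their probe sets may read related copies. Amdhd2, which returns amino sugars to central metabolism, had 8.17, 7.70 and 7.95 in KO AKI, against 9.11, 9.45 and 9.03 in WT AKI, with the arrays of each group within 0.5 of each other (-1.26, standard error 0.20, adjusted p = 0.0164). Arsb, a lysosomal sulfatase, had 13.13, 12.48 and 12.57 in KO AKI, against 13.73, 13.85 and 14.03 in WT AKI (-1.14, standard error 0.20, adjusted p = 0.0301).

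Several lower genes encode secreted or surface proteins. Afm, the vitamin E carrier afamin, had 10.18, 9.01 and 10.31 in KO AKI, against 11.27, 11.48 and 11.44 in WT AKI (log2 difference -1.56, standard error 0.29, adjusted p = 0.0336). Clec2h, a C-type lectin, had 9.28, 5.83 and 5.9 in KO AKI, against 9.86, 12.50 and 11.55 in WT AKI (-4.30, standard error 0.78, adjusted p = 0.0335). Sectm1b had 8.74, 4.39 and 6.32 in KO AKI, against 10.99, 10.14 and 10.57 in WT AKI (-4.08, standard error 0.73, adjusted p = 0.0315). Both Clec2h and Sectm1b had a wide KO AKI spread, with replicate 1 nearest to WT AKI and the other KO AKI arrays below background, so that the differences rest in part on signals that were not measured above it, and the WT AKI arrays of Sectm1b lay at the level of both control groups. H2-T23, a nonclassical MHC class I gene, was 2.18-fold lower (adjusted p = 0.0336) and the beta-defensin Defb29 was 4.10-fold lower (adjusted p = 0.0433). A list of 34 interferon-stimulated and antigen presentation genes held no call, with 26 lower and 8 higher in KO AKI and a median of -0.35. Its member with the smallest p was Ifit3, at 10.34, 9.22 and 10.15 in KO AKI and 11.82, 11.21 and 10.89 in WT AKI (-1.40, adjusted p = 0.065).

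The remaining lower genes were of mixed function. Osbp2, an oxysterol binding protein, had 5.53, 4.67 and 4.64 in KO AKI, against 6.26, 6.96 and 7.24 in WT AKI, and was at least 1.34-fold lower (adjusted p = 0.0162). Fam151a had 9.56, 5.81 and 7.36 in KO AKI, against 11.14, 12.07 and 11.04 in WT AKI (log2 difference -3.84, adjusted p = 0.0235), and Plekha6 had 8.08, 7.65 and 7.40 in KO AKI, against 8.97, 9.18 and 8.86 in WT AKI (-1.30, adjusted p = 0.0335). Of genes in the secretory pathway, Herpud1 of the degradation machinery of the endoplasmic reticulum was 2.29-fold lower (adjusted p = 0.0353), the Golgi tether subunit Cog6 was 1.96-fold lower (adjusted p = 0.0428), and the cargo protein Tmed6 was at least 2.53-fold lower (adjusted p = 0.0343). Herpud1 was the 1 call among 32 genes of the integrated and ER stress responses, with 17 higher and 15 lower. The mitochondrial ribosome gene Mrpl20 was 2.16-fold lower (adjusted p = 0.0369) and Lyrm1 was 2.10-fold lower (adjusted p = 0.0341). The ubiquitin ligase gene Fbxo44 was at least 1.33-fold lower (adjusted p = 0.0433). The kinase scaffold Mapk8ip1 was below background on every KO AKI array (adjusted p = 0.048). Vmn1r20, a vomeronasal receptor gene whose probe set gave signals of 6.03, 3.88 and 4.85 in KO AKI and 7.92, 8.10 and 8.62 in WT AKI, was at least 3.53-fold lower (adjusted p = 0.0101), and its neighbour in name Vmn1r19 was called too (-2.83, adjusted p = 0.0353). Lrriq3, Zmynd10, BC051142 and Olfr1101 were called lower on signals below background on all 6 AKI arrays.

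**Figure D2:**
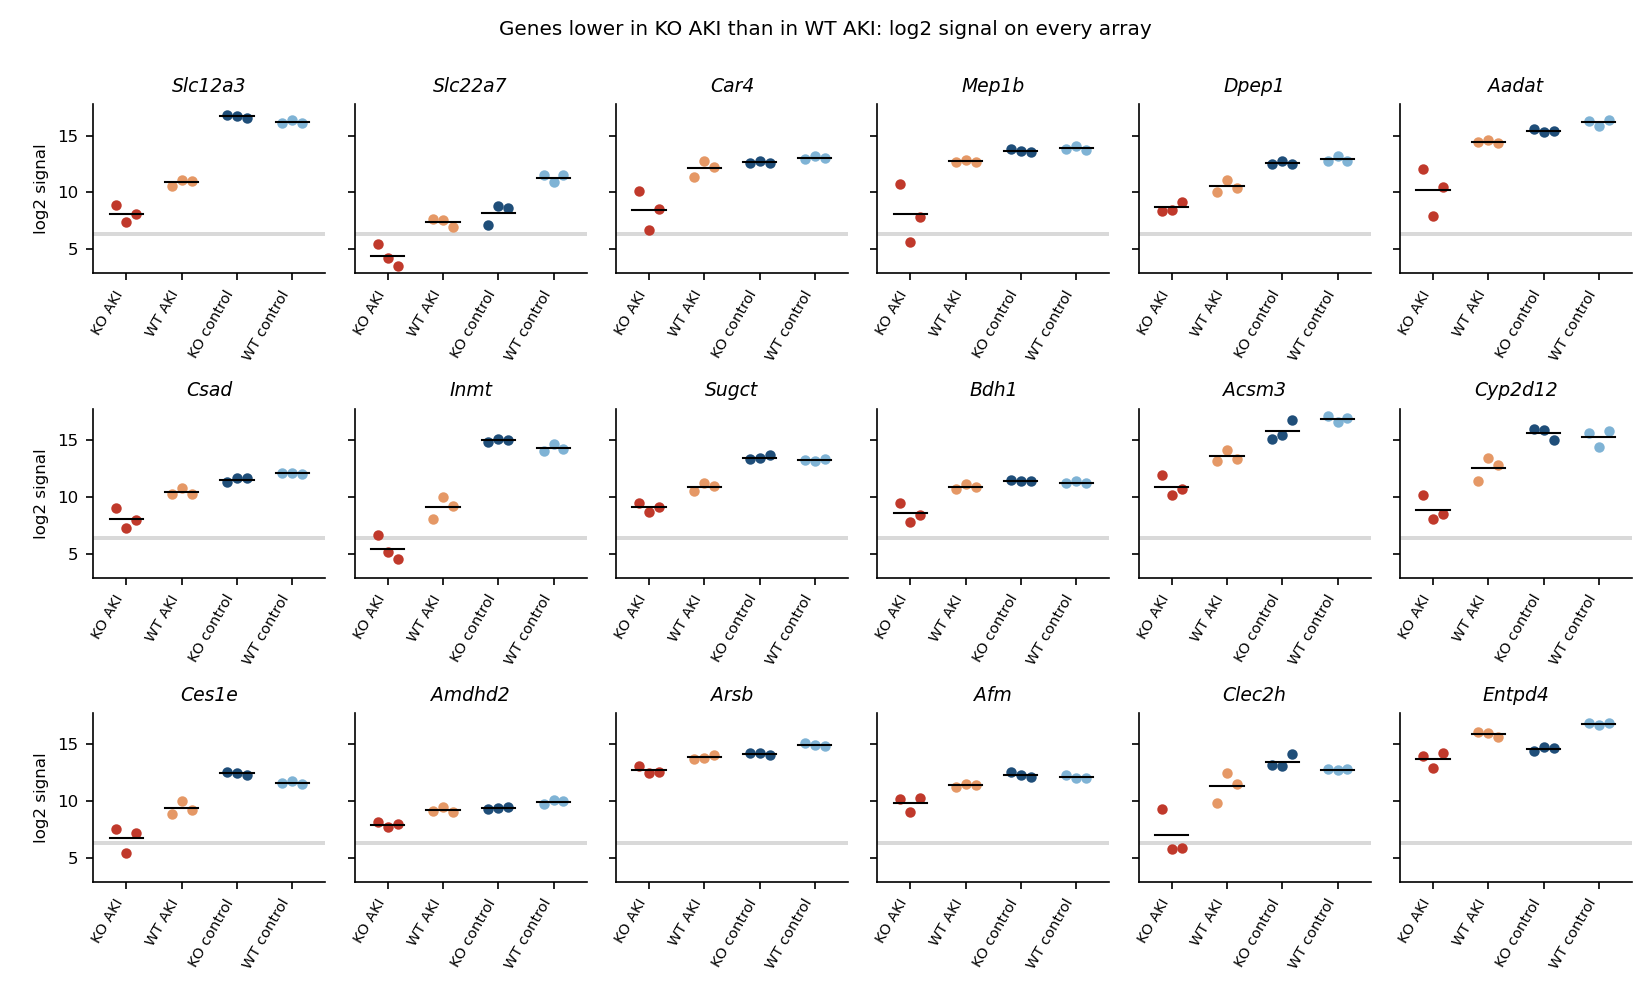
The log2 signals of 18 genes lower in KO AKI are plotted for KO AKI, WT AKI, KO control and WT control, with 1 point per array, a line at the group mean and the range of the background over the arrays in grey. The 3 KO AKI points of each gene lie below the 3 WT AKI points, and the KO control points also lie below all WT control points for Entpd4, Slc22a7, Csad, Aadat, Amdhd2, Car4 and Arsb. The KO control points lie above all WT control points for Slc12a3, Inmt, Sugct, Bdh1, Ces1e and Clec2h.

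Among the higher genes, those that bind or move iron included the gene with the largest difference next to Jchain. No list of iron genes was counted, and those described here were brought together after their values were seen. Lcn2, which binds the iron carriers of bacteria and marks tubule injury, had signals of 17.05, 19.25 and 17.93 in KO AKI, against 15.30, 13.19 and 14.51 in WT AKI (log2 difference 3.74, standard error 0.55, adjusted p = 0.0146). The controls were lower, with 6.31, 6.90 and 6.31 in KO and 7.93, 7.23 and 8.41 in WT. Cp, the plasma ferroxidase ceruloplasmin, had 15.94, 16.02 and 15.72 in KO AKI, against 14.56, 14.29 and 14.76 in WT AKI, a 2.56-fold rise (1.36, standard error 0.20, adjusted p = 0.0156). Its arrays lay within 0.5 of each other in both groups, and the control groups of Cp were alike, at 12.76 ± 0.26 in KO and 12.77 ± 0.16 in WT (SD). Tfrc, the transferrin receptor that takes iron into cells, was 3.03-fold higher (1.60, standard error 0.30, adjusted p = 0.0353). For Tfrc the KO AKI arrays, at 10.96 ± 0.51 (SD), lay at the level of the controls, and the WT AKI arrays, at 9.36 ± 0.23 (SD), lay below them. Steap1, of a family of metal reductases, was 3.03-fold higher (adjusted p = 0.0407). Cybrd1, a ferric reductase, was called on signals of 5.48, 5.79 and 5.98 in KO AKI and 4.81, 4.52 and 4.38 in WT AKI, all below background (adjusted p = 0.0301).

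Some genes of the annexin and S100 families and of the plasmin system were also called higher. S100a10, the partner of annexin A2 that binds plasminogen and its activator, had 13.44, 15.42 and 14.32 in KO AKI, against 12.44, 11.63 and 12.30 in WT AKI (log2 difference 2.28, standard error 0.40, adjusted p = 0.0301). Plat, the tissue plasminogen activator, had 11.85, 13.62 and 12.43 in KO AKI, against 10.63, 9.77 and 10.21 in WT AKI (2.43, standard error 0.35, adjusted p = 0.0145). Both were alike in the controls, with differences of -0.40 for S100a10 and 0.02 for Plat. They were the called members of 23 measured genes of plasminogen activation and coagulation, while 0.246% of all genes were called higher. Of the 23, 16 were higher in KO AKI, with a median of 0.45 and of 0.19 without KO AKI replicate 2. Anxa3 had 10.24, 12.41 and 11.51 in KO AKI, against 9.43, 8.33 and 8.46 in WT AKI (2.65, standard error 0.45, adjusted p = 0.027). Anxa4 had 13.91, 14.61 and 14.30 in KO AKI, against 13.06, 12.70 and 12.83 in WT AKI (1.41, standard error 0.21, adjusted p = 0.0154). These were 2 of the 12 measured annexins, a family that binds membranes in the presence of calcium, and 8 of the 12 were higher in KO AKI. S100a11 was 2.62-fold higher (adjusted p = 0.0423), and the membrane serine protease St14 was 2.22-fold higher (adjusted p = 0.0477).

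Genes of cell junctions and of the cytoskeleton were also called higher. Cldn1, a tight junction claudin, had 11.14, 11.11 and 10.45 in KO AKI, against 9.56, 8.60 and 8.49 in WT AKI (log2 difference 2.01, standard error 0.31, adjusted p = 0.0162). It was the only call among 32 measured claudins, of which 16 were higher and 16 lower. Dsp, a desmosome protein, was 1.98-fold higher (adjusted p = 0.0335). Cd44, the hyaluronan receptor, was 6.01-fold higher (adjusted p = 0.0336). Cd44 and Cldn1, with Itgam described below, were the calls among 36 measured genes of integrins, laminins and cell surface adhesion. Of all genes, 0.246% were called higher. Of the 36, 27 were higher and 9 lower in KO AKI, with a median of 0.44 and of 0.30 without KO AKI replicate 2. The small membrane proteins Emp1 and Emp2 were 2.60-fold (adjusted p = 0.0488) and 3.31-fold higher (adjusted p = 0.0407). Arpc1b, a subunit of the Arp2/3 complex that starts actin branches, had 12.71, 14.17 and 12.98 in KO AKI, against 11.56, 11.26 and 11.37 in WT AKI (1.89, standard error 0.30, adjusted p = 0.0164). Arhgap26 had 10.54, 11.12 and 10.66 in KO AKI, against 8.56, 9.02 and 9.69 in WT AKI (1.68, standard error 0.30, adjusted p = 0.033). The tubulin gene Tubb2b was 2.42-fold higher (adjusted p = 0.0416) and was the only call among 35 measured genes of actin, tubulin and intermediate filaments. Of these 35, 32 were higher in KO AKI and 23 had all KO AKI arrays above all WT AKI arrays (65.7% of the list, against 8.42% of all genes), with a median of 0.88 and of 0.62 without KO AKI replicate 2. Members short of the threshold included the tropomyosin Tpm4 (1.33, adjusted p = 0.0527), the actin-capping gene Capg (1.62, adjusted p = 0.0527) and the tubulin Tubb5 (1.83, adjusted p = 0.0595).

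Several genes called higher are known from macrophages and other innate immune cells, and of those described here Itgam and Fcgr3 belong to the macrophage and monocyte list, while the others were brought together after their values were seen. Itgam, the alpha chain of the CD11b integrin, had 9.88, 9.03 and 8.09 in KO AKI, against 7.03, 6.61 and 6.21 in WT AKI (log2 difference 2.38, standard error 0.36, adjusted p = 0.0162). Ms4a6b, a membrane gene of the CD20 family, had 8.15, 7.93 and 8.27 in KO AKI, against 6.78, 6.10 and 6.15 in WT AKI (1.78, standard error 0.24, adjusted p = 0.0102), and its relative Ms4a6c was 2.36-fold higher (adjusted p = 0.043). For Itgam and Ms4a6b, KO AKI replicate 2 was not the array farthest from WT AKI. Msr1, the class A scavenger receptor, had 6.73, 6.24 and 6.79 in KO AKI and 5.12, 5.40 and 4.90 in WT AKI, and was at least 1.17-fold higher (adjusted p = 0.0162). Fcgr3, a receptor of antibodies, was 2.51-fold higher (adjusted p = 0.0477). Tlr13, a receptor of bacterial RNA in mice, was at least 1.76-fold higher (adjusted p = 0.0368). Bst1, an ectoenzyme also known as CD157, had 8.63, 10.06 and 9.14 in KO AKI, against 7.20, 7.34 and 7.21 in WT AKI (2.03, standard error 0.28, adjusted p = 0.0113). Il1rn, the antagonist of interleukin 1, had 8.47, 9.80 and 8.52 in KO AKI, against 7.47, 6.23 and 6.91 in WT AKI (2.06, standard error 0.37, adjusted p = 0.0333). Dpep2, with 5.32, 6.01 and 5.54 in KO AKI and 4.35, 4.51 and 4.44 in WT AKI (adjusted p = 0.0301), and Tlr8 (adjusted p = 0.0477) were called on signals below background on all 6 AKI arrays.

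Markers of the cell types that could carry these genes moved unequally. Of 22 measured macrophage and monocyte genes 20 were higher in KO AKI. The called ones were 2, Fcgr3 and Itgam, while 0.246% of all genes were called higher. The log2 summed signal of the 22 genes ranged over 12.90 to 13.90 for KO AKI and 11.98 to 12.59 for WT AKI. The list median was 0.57, and by array it was 0.99, 0.01 and 0.56 above WT AKI in KO AKI replicates 1, 2 and 3. Adgre1, the surface receptor that defines mouse macrophages, had 6.78, 5.97 and 6.86 in KO AKI, against 7.0, 6.02 and 6.09 in WT AKI (adjusted p = 0.865). Csf1r, the receptor of the macrophage growth factor, had 9.82, 7.39 and 8.34 in KO AKI, against 9.17, 8.73 and 8.70 in WT AKI (adjusted p = 0.78). Neither marker separated the groups, but Adgre1 lay above background on only 2 KO AKI arrays and 1 WT AKI array, so it could show little. C1qa, a complement gene of the same list, had 9.61, 8.29 and 9.20 in KO AKI, against 8.82, 8.23 and 8.19 in WT AKI. It was above background on all these arrays, and the groups overlapped (0.62, adjusted p = 0.39). Of 17 neutrophil genes 3 lay above background on an AKI array, and of 16 T and NK cell genes 1 did, and no member of either list was called. The neutrophil list had a log2 summed signal of 8.74 to 10.41 on KO AKI arrays and of 8.72 to 8.86 on WT AKI arrays. The part of cell numbers in the calls was not tested.

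Further higher genes belong to metabolism. Car5b, a mitochondrial carbonic anhydrase, had 12.36, 12.93 and 12.71 in KO AKI, against 11.07, 10.68 and 11.49 in WT AKI (log2 difference 1.59, standard error 0.24, adjusted p = 0.0156). The controls of Car5b lay at 12.16 ± 0.27 in KO and 12.23 ± 0.13 in WT (SD), so WT AKI was the group that stood apart, and the change with cisplatin was 0.51 in KO and -1.15 in WT. Of 16 measured carbonic anhydrases 7 were higher and 9 lower in KO AKI, and the calls were Car5b, which rose, and Car4, which fell. Pklr, the pyruvate kinase of liver and red cells, had 8.50, 10.40 and 10.90 in KO AKI, against 7.09, 6.66 and 7.99 in WT AKI (2.69, standard error 0.48, adjusted p = 0.033). Acsl5, a long-chain acyl-CoA synthetase, had 12.79, 12.99 and 12.84 in KO AKI, against 11.85, 11.58 and 11.78 in WT AKI, with little spread in either group (1.13, standard error 0.18, adjusted p = 0.0162). Arg2, the mitochondrial arginase, had 9.87, 14.13 and 12.56 in KO AKI, against 8.57, 8.14 and 8.97 in WT AKI (3.63, adjusted p = 0.0477), and its difference was 2.66 without KO AKI replicate 2. A4galt, which makes the glycolipid Gb3, differed by 2.17 (adjusted p = 0.0477), and by 1.54 without that array. A list of 20 measured glycolysis genes held no call, with 10 higher and 10 lower in KO AKI.

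Receptors, feedback inhibitors and nuclear genes formed the last set. Socs2, an inhibitor of growth hormone and cytokine signalling, had 11.76, 11.70 and 11.76 in KO AKI, against 10.38, 10.68 and 10.43 in WT AKI (log2 difference 1.24, standard error 0.18, adjusted p = 0.0123). Il17rc, a chain of the interleukin 17 receptor, had 11.09, 11.03 and 10.90 in KO AKI, against 10.02, 9.85 and 9.85 in WT AKI (1.10, standard error 0.18, adjusted p = 0.0183). In both genes the KO AKI arrays agreed within 0.2 and none stood apart. Gabpb1, a subunit of a transcription factor of mitochondrial genes, had 8.93, 8.71 and 8.38 in KO AKI, against 7.53, 7.51 and 7.29 in WT AKI (1.23, standard error 0.20, adjusted p = 0.0218). Kpna2, a nuclear import receptor, had 10.37, 10.60 and 10.60 in KO AKI, against 9.49, 9.39 and 9.65 in WT AKI (1.01, standard error 0.18, adjusted p = 0.0285). Mybl1, a transcription factor of the Myb family, had 8.58, 9.82 and 9.58 in KO AKI, against 7.68, 6.99 and 7.76 in WT AKI (1.85, standard error 0.33, adjusted p = 0.033). Cdk2, a kinase of the cell cycle, was 2.08-fold higher (adjusted p = 0.0353) and was the only call of 34 measured cell cycle genes, of which 30 were higher in KO AKI with a median of 0.40. The NF-kB inhibitor Nfkbia (3.04-fold, adjusted p = 0.0456), the death receptor Tnfrsf10b (2.64-fold, adjusted p = 0.0477) and the antioxidant transcription factor Nfe2l2 (2.30-fold, adjusted p = 0.0428) were higher as well. So were Spcs3, a subunit of the signal peptidase (3.20-fold, adjusted p = 0.0386), the steroid receptor gene Paqr5 (2.61-fold, adjusted p = 0.0335) and Fam171a1 (2.28-fold, adjusted p = 0.0423).

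**Figure D3:**
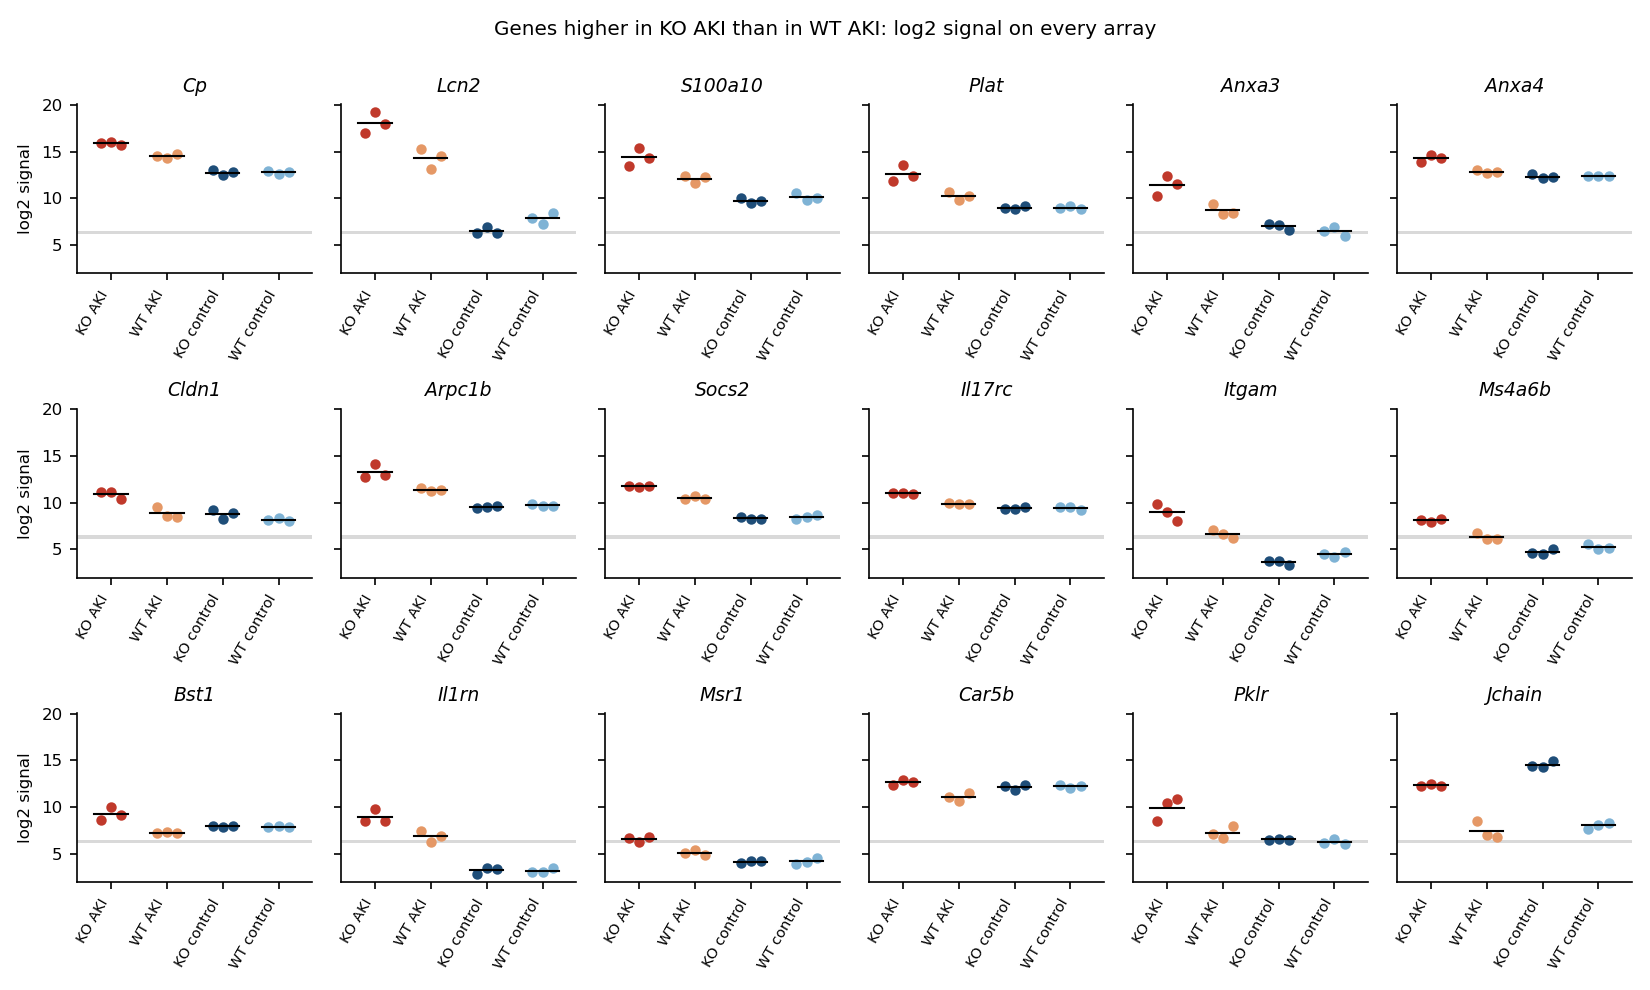
The log2 signals of 18 genes higher in KO AKI are plotted as for the lower genes, with KO AKI, WT AKI, KO control and WT control in each panel and the range of the background in grey. The KO AKI points lie above the WT AKI points in every panel, and Jchain is the only panel where KO control also lies apart from WT control by several log2 units.

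Lists and families with few or no calls still differed in how their members were spread, as the plot of list medians by array shows. Of 20 proximal tubule markers 19 were lower in KO AKI and 1, Gpx3, stood at the ceiling of the scale on all 12 arrays. None of the 20 was called, the median was -1.70, and it was -0.88 without KO AKI replicate 2. All 12 thick ascending limb markers were lower, with a median of -1.0 and of -0.32 without that array. While 0.246% of all genes were called higher, 4 of 31 measured genes of the injured tubule were, namely Lcn2, Cp, Anxa3 and S100a11. Of these 31, 29 were higher in KO AKI, with a median of 1.07. Akap12, a kinase anchor protein of that list, had 9.14, 13.50 and 11.04 in KO AKI, against 7.86, 7.36 and 8.25 in WT AKI, and missed the threshold (3.40, adjusted p = 0.0558). Of 31 complement and acute phase genes 24 were higher, with Cp as the only call and a median of 0.81.

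Other large families held no call. Of 63 ribosomal protein genes 56 were higher in KO AKI and 23 had all KO AKI arrays above all WT AKI arrays (36.5% of the family, against 8.42% of all genes), with a median of 0.39 and of 0.24 without KO AKI replicate 2. Of 93 genes of the respiratory chain and ATP synthase 78 were lower and none was called, with a median of -0.20. For the respiratory chain the median of KO control minus WT control was -0.20 as well. Of 42 collagens 34 were lower and none was called, with a median of -0.27. Of 358 zinc finger genes 172 were higher and 186 lower, none was called and the median was -0.01. For these 4 families the genes past the looser thresholds were 1 ribosomal protein, 1 collagen and 1 zinc finger gene, all higher in KO AKI. Of 18 circadian clock genes none was called, and the repressor Nr1d1 came closest (1.17, adjusted p = 0.0527). Of 13 genes of the APOBEC1 complex and its targets none was called. A1cf, the RNA-binding cofactor of APOBEC1, had a difference of -1.58 (adjusted p = 0.182), and Apob, its classical target, had 0.63 (adjusted p = 0.258).

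**Figure D4:**
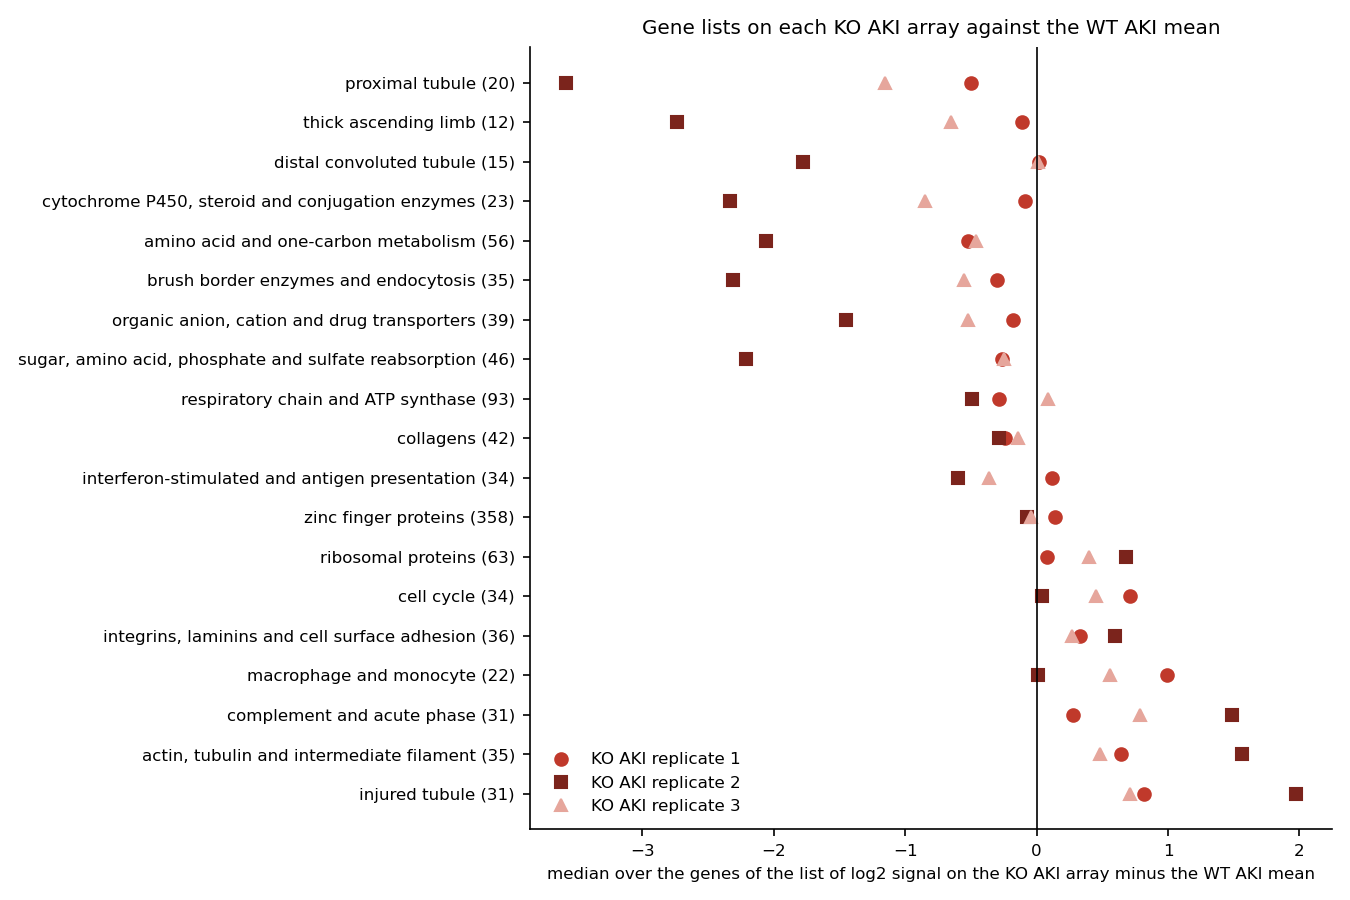
For 19 gene lists, with the number of measured genes in parentheses, each symbol gives the median log2 difference of 1 KO AKI array from the WT AKI mean. KO AKI replicate 2 lies farthest out for the tubule lists and for the injured tubule list, at -3.58 for proximal tubule and 1.97 for injured tubule, and lies at 0.01 for the macrophage and monocyte list, where replicate 1 lies at 0.99.

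Without cisplatin the genotypes differed at 10 genes (0.0513% of those tested), and 3 of the 95 genes were among them, Jchain, Entpd4 and Slc22a7. Jchain, the joining chain of secreted antibodies, had 12.28, 12.46 and 12.29 in KO AKI, against 8.51, 7.05 and 6.84 in WT AKI (log2 difference 4.88, standard error 0.36, adjusted p = 4.89e-05). In the controls it had 14.40, 14.29 and 14.90 in KO and 7.67, 8.13 and 8.31 in WT. Of the 10 measured plasma and B cell genes 8 were higher in KO AKI, and Jchain was the only call. Of the defining genes, Mzb1, Ms4a1 and Cd79a lay below background on all 12 arrays. Sdc1, a proteoglycan of plasma cells that epithelia also express, had 8.78, 10.89 and 9.74 in KO AKI, against 8.87, 8.74 and 8.96 in WT AKI, and the groups overlapped (0.95, adjusted p = 0.294). Entpd4, an enzyme that splits nucleotides in the Golgi and lysosome, had 13.96, 12.94 and 14.28 in KO AKI, against 16.13, 16.04 and 15.66 in WT AKI (-2.21, standard error 0.29, adjusted p = 0.0102). In the controls it had 14.44, 14.76 and 14.68 in KO and 16.87, 16.76 and 16.90 in WT (-2.22, adjusted p = 0.00929), so that the genotype difference was of the same size with and without the drug. A second probe set of Entpd4 had 12.78, 12.23 and 12.88 in KO AKI, against 14.80, 14.89 and 14.37 in WT AKI. The mouse genome holds a related gene, Entpd4b, on the same chromosome, and the probe sets may read both.

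Of the 95 genes, 50 had a control difference of the same sign as after cisplatin. For 6 genes the interaction of genotype and cisplatin passed the test, which is 0.0308% of those tested: Slc12a3, Lcn2, Ms4a6b, Vmn1r20, Slc22a27 and Xpnpep2. For the other 89 genes the difference after cisplatin was not shown to exceed that without it. With 3 arrays a side the smallest two-sided p of an exact permutation is 0.1, so no gene was tested that way.

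**Figure D5:**
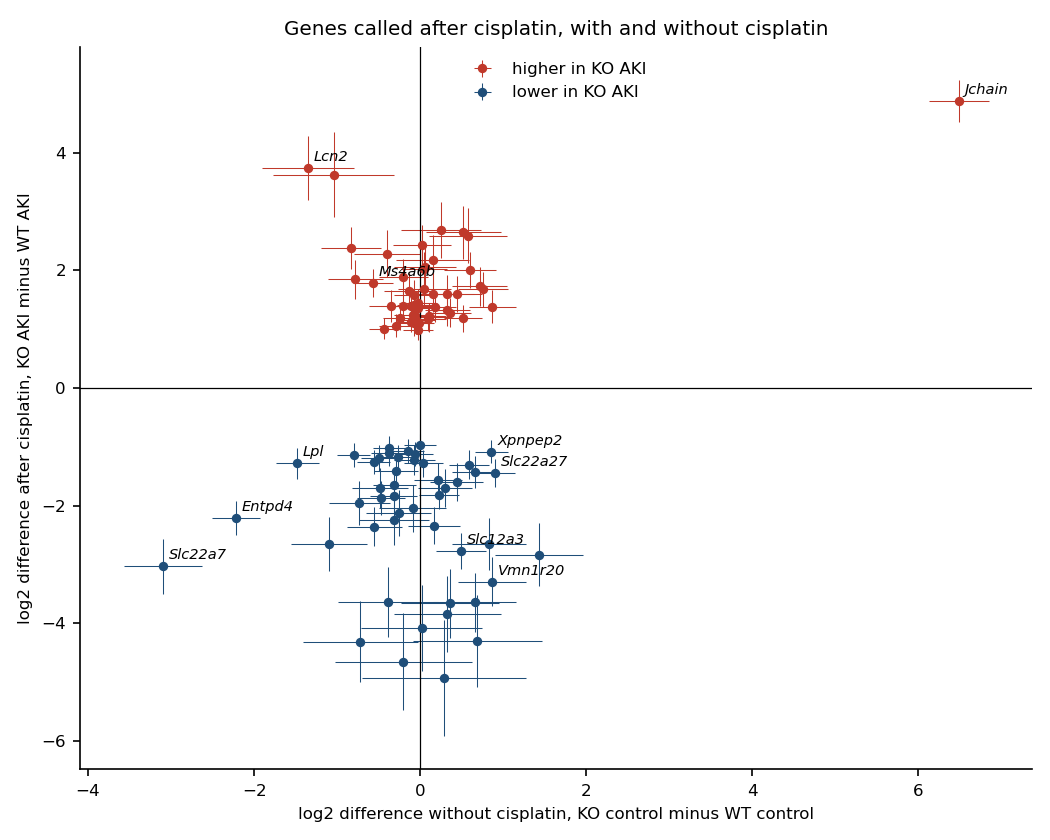
The log2 differences of the 95 genes after cisplatin (KO AKI minus WT AKI, y axis) are plotted against those without cisplatin (KO control minus WT control, x axis), with bars of 1 standard error from limma. Most genes lie near 0 on the x axis, and Jchain, Slc22a7 and Entpd4 lie far from it on both axes.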

How the data were processed

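RNA from whole mouse kidneys was measured on Clariom S arrays, 1 array per sample. The log2 signals deposited by the authors, used as they are, were made with Transcriptome Analysis Console (named in the submitters' processing notes); its version, the background correction and the normalization are not given in the sources used here. Array medians lay between 5.79 and 6.00, and values had a common ceiling of 19.9. Of 22206 probe sets that are no array controls, 19572 carried a single gene symbol and 2634 carried no symbol. Where a gene had more than 1 probe set (55 genes), that of the highest mean was kept, leaving 19505 genes.

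Group means were fitted to all 12 arrays with limma 3.58.1 in R 4.3.3 (lmFit and eBayes, 8 residual and 5.60 prior degrees of freedom), since the study names an analysis of variance without its model, and p-values were adjusted over all 19505 genes by the Benjamini-Hochberg method. A gene was called at an adjusted p under 0.05. P-values set a difference of group means against the spread within groups, pooled over all 12 arrays and moderated by the prior. The control arrays share in that spread and vary less, with a median SD of the called genes of 0.22 in either control group, against 0.51 in KO AKI. A gene above background on no array of 1 group has a bound, the other group's mean against the mean background of that group's arrays. No bound is given where the mean did not exceed that background. On data simulated for KO AKI against WT AKI with 19505 genes, 27 of 66 genes changed by 1 log2 unit were called, 66 of 67 changed by 2 units and all 67 changed by 3 units, with 4 false calls. The simulated noise was independent, with the same spread of a gene in every group. In the data the KO AKI arrays spread more (median SD of all genes 0.311, against 0.237 in WT AKI). The simulation therefore checks the code and does not give the rates of missed or false calls in these data.

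The 28 function lists, 14 marker lists and 26 families by symbol, and the genes compared, were chosen with earlier results of these data known. Values on every array are given for 25 called genes in either direction, taken by smallest p (predicted, olfactory and vomeronasal genes left out), for genes called in the controls or for the interaction, and for a few uncalled list members and markers named after their values were seen. List members short of the threshold were taken from the 3 with the smallest p of each list. Replicate numbers in the titles were checked for pairing and did not pair the samples. Alternatives were quantile normalization, median centring, array weights, the 6 AKI arrays alone, a filter on dim genes and a trended robust prior. Further ones were a replicate block, means of probe sets, an ordinary t test with equal variances on the 6 AKI arrays, and leaving out each array. Weights by group were added after the data were seen. Promoter motifs, the deposited scanner files and the study's pathway analysis were not analysed here.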

Additional observations from a re-analysis of the deposited data

Results flagged for a closer look

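For 6 genes the genotype difference after cisplatin differed from that without cisplatin by the interaction test of limma. The log2 interaction, the difference of KO AKI from WT AKI minus that of KO control from WT control, was 5.09 for Lcn2 (standard error 0.78, adjusted p = 0.0478), 2.35 for Ms4a6b (standard error 0.34), -3.26 for Slc12a3 (standard error 0.42), -2.35 for Slc22a27 (standard error 0.34), -4.16 for Vmn1r20 (standard error 0.58) and -1.94 for Xpnpep2 (standard error 0.29), each of the last 5 at an adjusted p of 0.0414. Lcn2 rose by 11.57 with cisplatin in KO and by 6.48 in WT, and Ms4a6b by 3.40 in KO and 1.05 in WT, on the log2 scale. Vmn1r20 fell by 5.40 in KO and by 1.23 in WT. Slc22a27 and Xpnpep2 lay below background on all 12 arrays, so their interactions rest on signals that were not measured above it. Vmn1r20 lay below background on all 3 KO AKI arrays. Ms4a6b lay above background on no control array and on 1 WT AKI array, and Lcn2 on 1 KO control array. The rises and interactions of Ms4a6b and Lcn2 thus rest in part on signals not measured above it. The number of genes called for the interaction was 0 with a replicate block (1931 at an unadjusted p under 0.05, against 2020 without the block) and ranged from 0 to 337 when 1 array was left out.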

How the results depend on the processing

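The 95 genes kept their direction under every alternative that tested them (86 of them under the dim-gene filter). Against 95 genes called between KO AKI and WT AKI, there were 183 with array weights and 179 among genes above background on at least 3 arrays. With a replicate block there were 44 (22 higher and 22 lower, 43 of them among the 95). The AKI arrays alone gave 1, the ordinary t test gave 0 (1562 at its unadjusted p under 0.05), and leaving out 1 array gave 2 to 1174. Quantile normalization gave 54 higher and 76 lower, against 48 and 47. By the looser thresholds of the study the 604 genes were 299 from the AKI arrays alone, 66 with the ordinary t test and 341 to 1340 without 1 array. The 10 genes between KO control and WT control were 35 with array weights, 19 with weights by group, 6 with the block and 1 to 27 without 1 array. The 6 interaction genes were 63 with array weights, 27 with weights by group, 3 with the dim-gene filter, 2 after quantile normalization, 10 with the trended prior, 0 with the block and 0 to 337 without 1 array. Deviations of KO AKI and WT AKI arrays of the same number correlated at -0.014, -0.114 and 0.015, so the numbers do not pair the samples. The difference of Apobec1, -0.12, was 0.10 with array weights and lay between -0.73 and 0.48 when 1 array was left out, changing sign when that array was KO AKI replicate 2 (0.48) or WT AKI replicate 1 (0.05). Of the 95 genes, 26 lost their call when KO AKI replicate 2 was left out. The cause of these changes was not tested. The neutrophil list had no value under the dim-gene filter, which left none of its genes, and the promoter motif count was not run. The 3 arrays per group limit the precision.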
